A study of Felis catus with 3 samples.

Results

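SOX5, SOX6 and COL9A3 are genes of cartilage formation, and their levels were examined in feline adipose-derived mesenchymal stem cells (ASCs) that had received no induction. These 3 genes, out of 21529 measured, were chosen by symbol through the study's gene table, in which 1811 genes had a symbol in the part that was available. Messenger RNA was sequenced from 3 ASC lines, each a primary culture of fat from its own cat, with 1 library for each, and these are called lines 1, 2 and 3. All of them carried the same condition: cells of passages 3 to 4, grown in MEMα with fetal bovine serum and left untreated, so no induced or control group was available for comparison. The study drew fat from specific pathogen-free and from client-owned cats, and the cats' age is not given in the sources used here. Levels are given as FPKM, fragment numbers scaled to transcript length and library size, which allows genes of different length to be set side by side.

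Cartilage forms when mesenchymal cells condense and turn on SOX9, a transcription factor that works with SOX5 and SOX6 to activate the genes of the cartilage matrix. SOX5 and SOX6 are close relatives of the SoxD group, which bind DNA as dimers through an HMG box and carry no activation domain of their own. Type IX collagen, of which COL9A3 encodes the α3 chain, sits on the surface of type II collagen fibrils and links them to the rest of the matrix. ASCs are fibroblast-like stromal cells of fat that can be driven toward cartilage, bone or fat by induction media, and the level of these genes without induction is the starting point for such work. SOX9, COL2A1 and ACAN, the genes that define a chondrocyte, had no symbol in the available part of the gene table, as was true of all 10 chondrocyte markers that had been listed, and they were not analysed here.

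All 3 genes were detected in every line, at low levels. COL9A3 was the highest, with 2.99 ± 1.24 FPKM (SD, n = 3 lines), followed by SOX5 with 0.528 ± 0.385 FPKM and SOX6 with 0.247 ± 0.0388 FPKM. None of them reached 15 FPKM, the level that the study regards as moderate, in any line, whereas 22.1% of all genes did so in every line. In bulk RNA, a few cells with much of a transcript and many cells with little of it cannot be told apart.

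**Figure D1:**
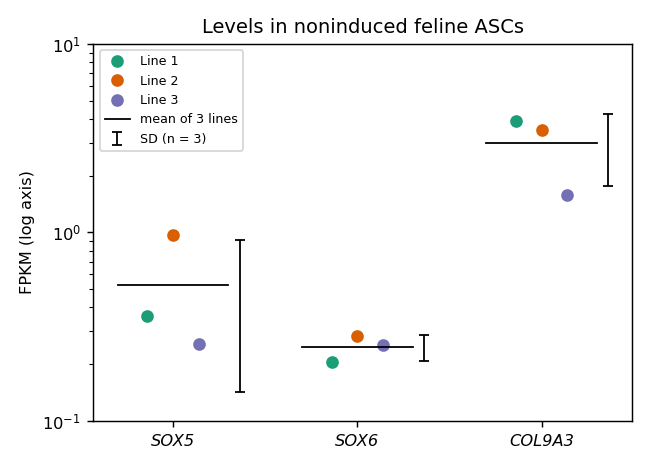
FPKM (log axis) of SOX5, SOX6 and COL9A3 in each line, with the mean (horizontal line) and SD over the 3 lines (bar). COL9A3 lies above both SOX genes in every line, SOX5 is set apart by line 2 at 0.969 FPKM, and the SOX6 points lie together between 0.206 and 0.283 FPKM.

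SOX5 (ENSFCAG00000002051) is on chromosome B4 of ICGSC Felis Catus 8.0, where its locus runs from 59017831 to 59226802. It had 0.359 FPKM in line 1, 0.969 FPKM in line 2 and 0.256 FPKM in line 3. Line 2 was thus the high line, and the other 2 lines lay close together. The ratio of the highest to the lowest line was 3.00 on the FPKM + 0.1 scale, and 1.29 without line 2. The value was higher than that of 15.8%, 21.2% and 14.2% of the genes above 0 in lines 1, 2 and 3.

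SOX6 (ENSFCAG00000002214) is on chromosome D1, with a locus from 74298494 to 74668738. Its level was 0.206 FPKM in line 1, 0.283 FPKM in line 2 and 0.252 FPKM in line 3. No line stood apart, and the highest and lowest lines differed by a ratio of 1.25 on the FPKM + 0.1 scale. Line 2 was again the highest. Between 12.2% and 14.0% of the genes above 0 in a line were lower than SOX6.

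COL9A3 (ENSFCAG00000001332) is on chromosome A3, with a locus from 1240195 to 1256597 that is far shorter than those of the SOX genes (16.4 kb, against 209 kb for SOX5 and 370 kb for SOX6). It had 3.91 FPKM in line 1, 3.48 FPKM in line 2 and 1.59 FPKM in line 3. Here line 3 was the low line, as it was for 31.7% of the genes above 0 in every line, and lines 1 and 2 were nearly level. The ratio of the highest to the lowest line was 2.38 on the FPKM + 0.1 scale and fell to 1.12 without line 3. The percentage of genes above 0 that lay below COL9A3 was 35.1% in line 1, 33.2% in line 2 and 25.9% in line 3. The 3 genes are on different chromosomes, and none of the other loci in the available part of the table overlapped them.

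**Figure D2:**
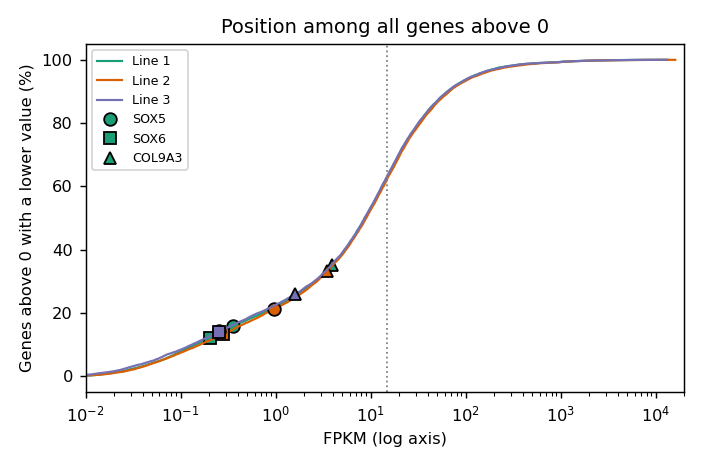
For each line, the percentage of genes above 0 that have a lower value (vertical axis) against FPKM (log axis), with the 3 genes marked on the curve and a dotted line at 15 FPKM. The curves of the lines lie on each other, the SOX genes sit at 12.2 to 21.2% and COL9A3 at 25.9 to 35.1%, all left of the dotted line.

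The order COL9A3, SOX5, SOX6 was the same in every line. COL9A3 exceeded SOX5 in 3 of 3 lines, by a factor of 10.9 in line 1, 3.59 in line 2 and 6.20 in line 3. The mean difference was 2.37 ± 0.70 on the log2(FPKM + 0.1) scale (SD, n = 3 lines). COL9A3 was higher than SOX6 by 3.07 ± 0.74 on the same scale, also in 3 of 3 lines. For SOX5 against SOX6 the mean difference, 0.70 ± 0.74, was smaller than its own SD. SOX5 was 3.43 times SOX6 in line 2 and 1.74 times in line 1, but in line 3 the ratio was 1.02 and the levels were nearly equal. With 3 lines, an exact two-sided sign-flip permutation test cannot give a p below 0.25, and each of the 3 pairs reached that value (p = 0.25, and 0.25 after Benjamini-Hochberg adjustment over the 3 pairs).

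SOX5 and COL9A3, 2 of the 3 members, differed by a ratio of 2 or more between their highest and lowest line, as did 17.7% of the 13347 genes above 0 in every line. With a pseudocount of 1 in place of 0.1, neither passed 2 (1.57 for SOX5 and 1.90 for COL9A3), and the share of all genes was 9.10%. With a pseudocount of 0.01 both did (3.68 and 2.45), and the share was 22.0%. At the pseudocount of 0.1, the share was 11.5% without line 1, 6.08% without line 2 and 11.8% without line 3. It cannot rise when a line is left out. The share depends strongly on the level, so each gene was set beside the genes above 0 in every line whose mean lay within 2-fold of its own. Genes listed at 0 in a line were left out. The genes used were 1139 of 1269 for SOX5, 1001 of 1283 for SOX6 and 2450 of 2471 for COL9A3. At the level of SOX5, 50% of 1139 genes had a ratio of 2 or more, and 26.4% had a ratio at least as large as that of SOX5. The spread of SOX5 between lines was therefore common for genes of this abundance. At the level of SOX6 the share past 2 was 45.5% of 1001 genes, and 91.7% of them had a ratio at least as large as SOX6, which was thus among the steadier genes of its level. At the level of COL9A3, 25.1% of 2450 genes passed 2, and 17.7% had a ratio at least as large. Since each line had a single library, the error of a repeat library is unknown and no difference between lines could be tested.

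**Figure D3:**
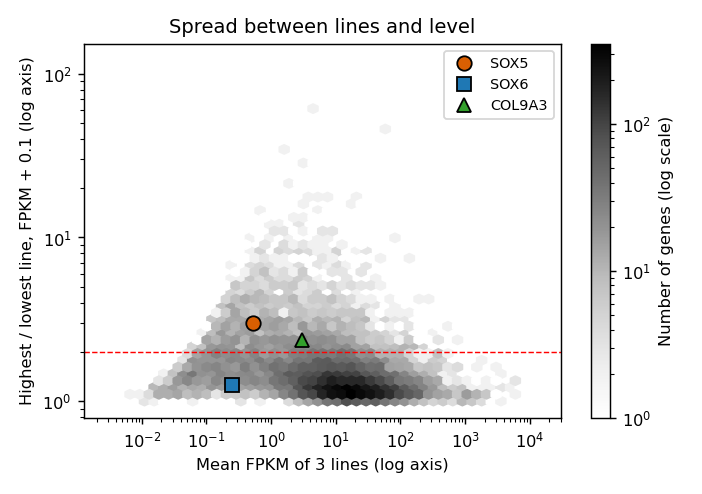
Ratio of the highest to the lowest line (FPKM + 0.1, log axis) against the mean FPKM of the 3 lines (log axis) for the 13347 genes above 0 in every line, drawn as a density, with the 3 genes marked and a dashed line at a ratio of 2. SOX5 (3.00) and COL9A3 (2.38) lie above the dashed line and SOX6 (1.25) lies below it, in a range of levels where the cloud is wide.

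Line 2, the line highest in both SOX5 and SOX6, was also the highest line for 40.5% of the genes above 0 in every line, against 30.5% for line 1 and 29% for line 3. Markers of other cell types were read beside it. The 2 smooth muscle markers with a symbol (of 5 listed), SMTN and LMOD1, summed to 221 FPKM in line 2 and to 72.1 and 78.3 FPKM in lines 1 and 3. The 8 leukocyte markers with a symbol (of 9) summed to 9.75, 9.18 and 6.49 FPKM in lines 1, 2 and 3, most of it from CD37, and CD2 was listed at 0 in every line. Of 6 endothelial markers, the 2 with a symbol, TEK and FLT4, summed to between 1.48 and 2.08 FPKM. Whether these transcripts came from other cells or from the ASCs themselves was not tested. Nor was any part of other cells in the levels of SOX5, SOX6 and COL9A3. ENG (CD105), the one stromal marker of 10 with a symbol, was at 72.5, 117 and 73.9 FPKM.

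Among the SOX factors, 4 of 13 listed genes had a symbol. SOX13, the other member of the SoxD group, was above SOX5 and SOX6 in every line, with 4.83, 4.34 and 3.75 FPKM in lines 1, 2 and 3. It was 13.5, 4.48 and 14.6 times SOX5 in the same lines, and 14.9 to 23.5 times SOX6. SOX13 transcripts were therefore the most abundant of the SoxD group in these cells, and their level varied little between lines (ratio 1.28 on the FPKM + 0.1 scale). SOX10, a SoxE factor of the neural crest and its glia, had 0.124, 0.368 and 0.163 FPKM. It was below SOX6 in lines 1 and 3 and above it in line 2, so the order of this pair was not resolved.

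COL9A3 was at place 4 of 7 collagen genes with a symbol, in each line and by its mean. COL5A1, a regulatory chain of stromal collagen fibrils, was the highest, with a mean 102 times that of COL9A3. COL7A1, the anchoring fibril collagen, had 1.82, 5.57 and 3.65 FPKM in lines 1, 2 and 3, and COL14A1, a collagen that like type IX associates with fibrils, had 5.18, 0.586 and 1.58 FPKM. Both changed sides with COL9A3 between lines, so the order of these 3 was not resolved. COL27A1, a fibrillar collagen of cartilage and the only other cartilage collagen with a symbol (2 of 8 listed), was lower than COL9A3 in every line, with 0.440, 0.666 and 0.587 FPKM.

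The 2 listed matrix genes other than collagens that had a symbol were below 15 FPKM, a level that 22.1% of all genes reached in every line. They followed a different order of lines from COL9A3. MATN2, a matrilin that links matrix filaments, had 0.436 FPKM in line 1, 0.0319 FPKM in line 2 and 0.124 FPKM in line 3. OGN, the small leucine-rich proteoglycan osteoglycin, had 2.35, 0.686 and 1.52 FPKM. Both were highest in line 1, as were 30.5% of the genes above 0 in every line, and lowest in line 2. They were the only 2 of 21 listed genes with a symbol, so no pattern of matrix genes can be read from them.

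Of 15 listed ligands of cartilage, joint and limb formation, 3 had a symbol, and none had 1 FPKM or more in all lines. Of all genes 49.6% did so, and of the genes with a symbol 61.3%, and 3 genes are too few to set against these shares. BMP7, which drives cartilage and bone formation, had 0.0261 FPKM in line 1 and was listed at 0 in the other lines. WNT9A, a signal of forming joints, stayed between 0.104 and 0.145 FPKM. WNT7A, a limb signal, had 0.0442, 1.65 and 0.898 FPKM, and line 1 was the low line. Of the receptors and modulators, 6 of 8 genes with a symbol had 1 FPKM or more in all lines, as did 61.3% of all genes with a symbol. The median of their mean levels, 5.95 FPKM, was close to the 5.68 FPKM over all genes with a symbol. ENG, a co-receptor for TGFβ, was the highest of them. FST, which encodes the activin antagonist follistatin, had 13.6, 71.3 and 20.6 FPKM and was highest in line 2. NFATC1, a calcium-regulated transcription factor, differed little between lines (20.2 to 23.4 FPKM). ACVRL1, a type I receptor for BMP9, ranged from 2.48 to 5.55 FPKM, and BMPER, a secreted BMP binder, from 1.31 to 2.75 FPKM. LTBP4, which holds latent TGFβ in the matrix, ranged from 5.67 to 10.0 FPKM. GLI1, a target of Hedgehog signals, was at 0.111, 0.0953 and 0.428 FPKM, and NFATC2 was at 0.0179 FPKM or less.

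Of 6 genes of chondrocyte hypertrophy and bone with a symbol (13 listed), 4 were below 1 FPKM in every line, as were 46.1% of all genes and 34.3% of the genes with a symbol. MMP13, the collagenase of hypertrophic cartilage, was listed at 0 in all 3 lines. PANX3, a channel of chondrocytes and osteoblasts, was listed at 0 in lines 1 and 3 and had 0.109 FPKM in line 2. RUNX3 was at 0.0697 FPKM or less, and PHOSPHO1, a phosphatase of mineralization, was between 0.210 and 0.604 FPKM. SPP1, which encodes osteopontin, was the only gene of this list with 1 FPKM or more in all lines, with 7.10, 14.7 and 3.82 FPKM. TNFRSF11B (osteoprotegerin) had 0.714, 2.82 and 1.40 FPKM. The last 2 genes were highest in line 2, as SOX5 was and as were 40.5% of the genes above 0 in every line.

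**Figure D4:**
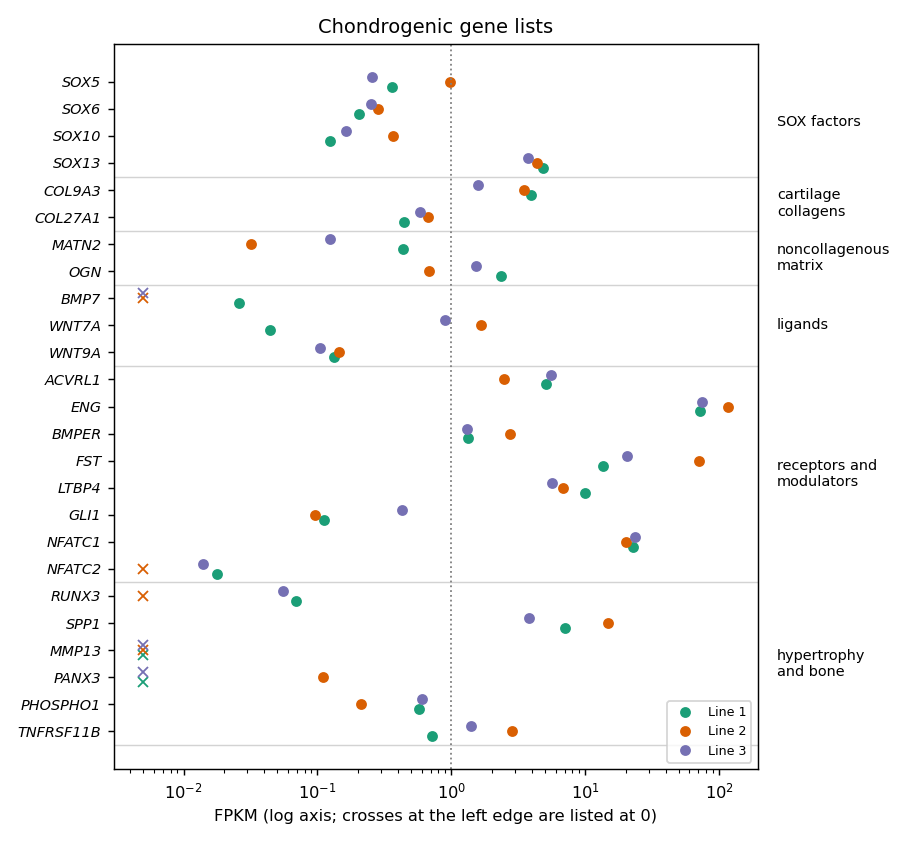
FPKM (log axis) by line of the genes with a symbol from the lists of SOX factors, cartilage matrix, ligands, receptors and modulators, and hypertrophy and bone. Crosses at the left edge are values listed at 0, and the dotted line is at 1 FPKM. A place on a list does not mean that a gene promotes cartilage formation. SOX5, SOX6 and most ligand and hypertrophy genes lie left of 1 FPKM, while SOX13, COL9A3 and 6 of the 8 receptor and modulator genes lie right of it in every line.

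Over all lists, 36 genes other than the members had a symbol, out of 139 listed. These include 5 noncartilage collagens and 4 genes of the adipocyte list, so the values below are not those of chondrogenic genes alone. In all lines, 16 of the 36 (44.4%) had 1 FPKM or more, against 49.6% of all genes and 61.3% of the 1811 genes with a symbol. Among the 16 were 3 noncartilage collagens and 1 gene of the adipocyte list. The median of the mean levels of the 36 genes was 1.58 FPKM, against 1.57 FPKM over all genes and 5.68 FPKM over the genes with a symbol. COL9A3 was thus on the upper side of 1 FPKM in every line, and SOX5 and SOX6 were on the lower side in every line, like 46.1% of all genes. SOX5 in line 2 was just under that level, and it was at 1.41 when each library was rescaled to a sum of 1000000.

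The genes nearest to each member in level over the 3 libraries were sought among the 1810 other genes with a symbol, by the Euclidean distance of log2(FPKM + 0.1). CCDC89, a coiled-coil protein gene (distance 0.55), ADCY5, an adenylyl cyclase (0.55), and IGLON5, an adhesion molecule (0.61), were nearest to SOX5, and 0 genes lay within 0.5. FAM184B (0.22), CLSTN2 (0.30) and LCP2 (0.30) were nearest to SOX6, with 10 genes within 0.5. CYP1A1, a xenobiotic-metabolizing cytochrome, was nearest to COL9A3 (0.31), with 4.20, 4.06 and 1.37 FPKM, and was the 1 gene within 0.5. JADE3 (0.54) and RAB3A (0.55) followed. With 3 points per gene, such likeness describes the levels only.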

How the data were processed

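Strand-specific, poly-A selected RNA-Seq libraries of 3 noninduced feline ASC lines were deposited by the authors as normalized FPKM per Ensembl gene, after alignment to ICGSC Felis Catus 8.0 with HISAT, Cufflinks quantification and Cuffnorm normalization. Program versions, annotation release and strand setting are not given in the sources used here. All 21529 genes had status OK, and no filter was used for levels. Lines were numbered by replicate, and each file's values equalled the like-numbered labelled column of the study's gene table at all 1997 available genes. Symbols and loci came from that table.

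FPKM are not counts, so fragments per gene are unknown and no counting intervals are given. Steps in values under 0.15 FPKM put the worth of 1 fragment at 0.911 in line 1 relative to line 2 (22.0% of 663 genes within 1%), and less clearly at 1.28 and 1.40 for lines 1 and 2 relative to line 3. The FPKM sums were 621797 to 688297, and 33.3 to 34.3% of genes were listed at 0. In RefSeq (F.catus_Fca126_mat1.0, another assembly), 2 noncoding models overlap SOX5, 4 noncoding or pseudogene models overlap SOX6, and TCFL5 overlaps COL9A3, and the effect of shared reads was not tested.

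Ratios and distances used a pseudocount of 0.1. Pairs of members were compared with an exact two-sided sign-flip permutation test, adjusted by Benjamini-Hochberg. A difference between lines was counted at a ratio of 2 or more. Named genes were the 3 members, the listed genes with a symbol, and the 3 nearest genes to each member. The members and lists were chosen with earlier results of these data known. Alternatives were the scaling, pseudocount, threshold, low-value filter, median, and leaving out each line. Python 3.11.15, pandas 2.3.3, numpy 2.4.6, scipy 1.17.1 and matplotlib 3.10.9 were used, and the code was tested on simulated data.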

Additional observations from a re-analysis of the deposited data

How the results depend on the processing

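The order of the 3 members was the same in every line, so another pseudocount or leaving out a line could not reverse the mean differences. When each library was rescaled to a sum of 1000000, which multiplies every gene of a library by 1.45 to 1.61, the mean level moved to 0.796 for SOX5, 0.379 for SOX6 and 4.61 for COL9A3. Without 1 line, the mean level was 0.307 to 0.664 FPKM for SOX5, 0.229 to 0.267 FPKM for SOX6 and 2.53 to 3.69 FPKM for COL9A3. A pseudocount of 1 lowered the ratio of the highest to the lowest line to 1.57 for SOX5, 1.06 for SOX6 and 1.90 for COL9A3, so that no member passed 2, and the share of genes at a ratio of 2 or more to 9.10%, since it outweighs values below 1 FPKM. Without 1 line, the ratio ranged from 1.29 to 3.00 for SOX5, from 1.09 to 1.25 for SOX6 and from 1.12 to 2.38 for COL9A3, and the share of genes from 6.08 to 11.8%. Leaving out a line can only lower these values or leave them as they are. The share of 17.7% was 50.0% and 45.5% among genes above 0 in every line at the level of SOX5 and SOX6, an alternative chosen after seeing the data. The count of 16 other list genes at 1 FPKM or more lay between 15 and 19 under its alternatives. No paired comparison of groups was possible because the series has a single group. The fragments behind each value are unknown, and the part of depth in the spread between lines was not tested.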

Other observations

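ADAMTS4 and ADAMTS5, the main enzymes that cut the cartilage proteoglycan aggrecan, were above SOX5 and SOX6 in every line. ADAMTS5 had 15.1, 8.61 and 7.85 FPKM in lines 1, 2 and 3, and was highest in line 1. ADAMTS4 had 1.53, 6.0 and 3.54 FPKM, so that line 2 was highest and line 1 lowest. ADAMTS12, which cleaves COMP, had 5.12, 9.98 and 6.36 FPKM, while ADAMTS9 stayed at 0.393 FPKM or less. XYLT1, which starts chondroitin sulfate chains and was the one gene of that list with a symbol (13 listed), had 3.83, 3.00 and 6.23 FPKM.

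Of 10 genes on the adipocyte list, 4 had a symbol. PLIN2, a coat protein of lipid droplets found in many cell types, was at 139, 129 and 125 FPKM in lines 1, 2 and 3. PPARGC1A, a coactivator of mitochondrial genes, had 0.206, 0.906 and 0.198 FPKM. It was highest in line 2, as were SOX5 and 40.5% of the genes above 0 in every line. RETN was listed at 0 in every line. So was CEBPE, which is on the list but is not an adipocyte gene, so its value says nothing about adipocytes.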
